A study of Caenorhabditis elegans with 10 samples.

Results

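The fbxa genes encode the F-box A proteins of Caenorhabditis elegans. They were read in the counts of whole early L1 larvae in which pbrm-1 had been inactivated in the mesoderm, next to those of a control strain. The members were the protein-coding genes whose symbol is fbxa- and a number and which had at least 10 counts in at least 5 of the 10 libraries. Of 170 annotated protein-coding fbxa genes, all listed in the count table, 136 met this rule, out of 46756 genes listed in all. The rule did not compare the strains, but a gene could meet it through the libraries of either strain alone.

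Polyadenylated RNA of hermaphrodite larvae was sequenced from 5 replicates per strain, numbered 1, 4, 5, 6 and 7, and each number stands for a day on which both strains were collected side by side. The strain pbrm-1(TS-KO), RA678, carried pbrm-1(rd31[pbrm-1::GFP(flox)]), a GFP-tagged pbrm-1 allele flanked by loxP sites, and the transgene rdIs74, in which the hnd-1 promoter drives a GFP nanobody joined to ZIF-1, which degrades the tagged protein, and the recombinase Cre, which deletes the flanked exons. The strain pbrm-1(control), RA685, carried the same tagged allele and rdIs79[hnd-1p::ZIF-1], without the nanobody or Cre. Both strains were grown at 20°C, were hatched overnight in M9 medium without food, and were homozygous for a loss of unc-119 that was rescued by the transgenes. The hnd-1 promoter acts in mesodermal cells, mainly body wall muscle, the M mesoblast and the somatic gonadal precursors, while the RNA was that of whole animals and so included cells in which pbrm-1 was not targeted. Some pbrm-1(TS-KO) larvae lacked the tagged protein in all cells, which the study attributed to recombination in the mother. PBRM-1 is a bromodomain subunit of the PBAF chromatin remodeling complex.

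F-box proteins are the substrate-binding subunits of SCF ubiquitin ligases. The F-box binds an adaptor of the SKP1 family, called SKR in C. elegans, and the adaptor binds the cullin CUL-1, so that the protein held by the rest of the F-box protein is marked for degradation. FBXA proteins join the F-box to an FTH domain, named after FOG-2, and in C. elegans the family has grown to a large size through tandem duplication. Most members have no known role of their own. FBXA-75 and FBXA-158 are exceptions, since they act with the cullin CUL-6 in the intracellular pathogen response, and FOG-2, a close relative, promotes spermatogenesis in hermaphrodites.

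The libraries held 35922561 to 46553938 counts in pbrm-1(TS-KO) and 36354418 to 45126931 in pbrm-1(control). The median member had at least 112.5 counts in every library. Counts over the whole pbrm-1 gene were 233 to 265 CPM (counts scaled to library size, with the scaling of edgeR's trimmed mean of M values, TMM) in pbrm-1(TS-KO) and 224 to 286 CPM in pbrm-1(control), with overlap between the strains (adjusted p = 0.433 in the quasi-likelihood test of edgeR). The log2 ratio, which here stands for the fitted log2 fold change of pbrm-1(TS-KO) over pbrm-1(control), was -0.09. A count over all exons in whole animals is a weak check of a deletion of the last exons in the mesoderm. In the study's own exon-level test, most of the deleted exons were significantly lower in pbrm-1(TS-KO). By microscopy, the study saw no tagged protein in the somatic gonadal precursors. Body wall muscle markers summed to 15222 to 18747 CPM and 16846 to 18231 CPM, while the adult sperm genes msp-3 and msp-142 were at 0 in all 10 libraries. The library of control replicate 5 stood apart in cuticle genes: the collagen gene dpy-7 had 67.5 CPM there, against 1.75 to 6.18 CPM in the other 4 control libraries and 1.71 to 3.09 CPM in pbrm-1(TS-KO). The 4 intestine markers found in the table (elt-2, elt-7, ifb-2 and act-5) reached a sum of 2031 to 2127 CPM in pbrm-1(TS-KO) libraries against 1600 to 1738 CPM in the control, without overlap. That sum was mostly ifb-2, an intermediate filament gene and the one called of the 4, with a log2 ratio of 0.39 (1871 and 1432 CPM on average). The largest log2 ratio of the 4 was that of elt-2, 0.41, which was not called. By contrast, act-5 went the other way (161 and 212 CPM, log2 ratio -0.40, adjusted p = 0.199), and elt-7 had a log2 ratio of 0.08. All 4 pharynx markers had a negative log2 ratio and were lower in sum on 5 of 5 days, with tnt-4 (-0.20) and pqn-83 (-0.23) called. Of the 5 body wall muscle markers mup-2 was called (-0.43). Germ cell markers were higher in sum on 5 of 5 days, with glh-1 called (0.28). Of these 5 markers, 4 had a positive log2 ratio and 1 a negative one of -0.53, which was not called. The part of these differences in the fbxa values was not tested.

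The family was spread unevenly over the genome. Chromosome V held 56 members and chromosome III 51, against 11 on II, 9 on X, 6 on I and 3 on IV. The members lay toward the chromosome ends: the midpoints of 118 members (86.8%) were in the outer 25% of a chromosome on either side, compared with 41.3% of the protein-coding genes tested. On chromosome III 47 members were in the left outer region and 3 in the right, whereas on chromosome V 3 were in the left and 38 in the right. The median member had 1152 exon bases in 4 exon blocks, and the median protein-coding gene tested had 1333 in 6. With a gap of at most 10 kb between gene ends counted as neighbouring, 88 members fell into 25 groups of 2 to 9, and 60.3% of 63 adjacent pairs lay on the same strand.

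Most members were expressed at a low level. As a mean over the 10 libraries and per kilobase of exon, the median member had 2.56 CPM and the median gene tested 8.69 CPM, and 15 members were above that gene median. The highest level by far was that of fbxa-24 (WBGene00018803, chromosome II, 3816526 to 3818238 of WBcel235), with 188 CPM per kilobase. It had 302 ± 20.97 CPM in pbrm-1(TS-KO) and 326 ± 29.0 CPM in pbrm-1(control) (SD, n = 5 each), and its log2 ratio was -0.11 (adjusted p = 0.351, edgeR). The gene contributed 30.7% to 34.0% of the summed CPM of all members in each library. The next levels were those of fbxa-6 with 28.6 CPM per kilobase and fbxa-222 on the X chromosome with 23.7 CPM per kilobase. Neither gene was called between strains, with log2 ratios of 0.34 (adjusted p = 0.137) and -0.08 (adjusted p = 0.649), and fbxa-222 had 24.1 ± 3.92 and 25.5 ± 1.13 CPM in pbrm-1(TS-KO) and the control (SD, n = 5 each). Genes just inside the count rule, each with 10 counts in 5 libraries, were fbxa-75, fbxa-196 and fbxa-218, and genes just outside it, with 10 counts in 4 libraries, were fbxa-27, fbxa-30 and fbxa-133. Of the 34 genes that missed the rule, fbxa-35 and fbxa-102 had no count in any library.

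The strain comparison asked which fbxa genes differed in level between the strains. At an adjusted p of at most 0.05, edgeR called 16 of 135 members tested (11.9%), where 7.72% of all genes were called. At an unadjusted p under 0.05 the shares were 24.4% of members and 24.1% of all genes. Only 2 of the 16 calls held in all 15 fits that left out 1 library or both libraries of 1 day. The strains also differ in the nanobody and Cre, and the part of these in the calls was not tested. Among members with at least 10 counts in all 10 libraries, the rises went up to a log2 ratio of 1.42, for fbxa-155, and the strongest fall was one of -0.95, for fbxa-136. The fitted log2 ratios of fbxa-181 (1.48) and fbxa-196 (1.98) were larger, but these genes had 10 counts in all 5 pbrm-1(TS-KO) libraries and in 1 and 0 control libraries. The 11 members that were higher in pbrm-1(TS-KO) were fbxa-43, fbxa-101, fbxa-114, fbxa-118, fbxa-140, fbxa-155, fbxa-163, fbxa-181, fbxa-192, fbxa-196 and fbxa-209. The 5 that were lower were fbxa-31, fbxa-136, fbxa-138, fbxa-166 and fbxa-199. For these 16 no role of their own is given here, since none is known with certainty. In RNA of whole larvae, fewer cells of a type and less RNA per cell cannot be told apart.

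Of 136 members, 135 passed edgeR's filter on low counts, fbxa-218 being the exception with 4 to 20 counts in pbrm-1(TS-KO) and 3 to 15 in the control, and 11.9% of them were called at an adjusted p of at most 0.05 by edgeR, adjusted by the method of Benjamini and Hochberg over 16817 genes. Of all genes tested, 7.72% were called. The members called higher were 8.15% of those tested, where 3.44% of all genes were called higher, and the members called lower were 3.70%, where 4.28% of all genes were called lower. The call of fbxa-196 concerns a gene that met the count rule only through pbrm-1(TS-KO), so that its direction was set by the rule. For fbxa-181 the 5 pbrm-1(TS-KO) libraries met the rule without the control, where 1 library had 10 counts, so the rule favoured its direction too. An unadjusted p under 0.05 was found for 33 members (24.4%) and for 24.1% of all genes. Of the members tested, 67 had a positive and 68 a negative log2 ratio, and the median was -0.0033, next to 0.00045 for all genes. The median size of the log2 change was 0.175 for members and 0.135 for all genes. With 1 term per collection day added to the fit, edgeR called 13 of 135 members, a smaller share than the 10.9% of all genes. The excess of called members was thus absent from that fit.

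Each of the 16 called members differed in the same direction in 5 of 5 pairs of libraries collected on the same day. The calls came from these same libraries, so neither this agreement nor a lack of overlap tests them separately. For 14 of the 16 the libraries of the strains did not overlap, and this held for 20 members in all (14.8%), compared with 9.26% of all genes tested. The other 6 were fbxa-3, fbxa-4, fbxa-15, fbxa-80, fbxa-89 and fbxa-143. A change of at least 2-fold was fitted for 3 members, fbxa-155, fbxa-181 and fbxa-196, whereas 3.41% of all genes reached that size. The count rule was met by fbxa-196 only through pbrm-1(TS-KO), and fbxa-181 had 10 counts in only 1 control library. For these genes the rule favoured a large rise and a lack of overlap, so neither comparison with all genes is a like one. The summed CPM of all members was 959 ± 54.2 in pbrm-1(TS-KO) and 988 ± 53.8 in pbrm-1(control) (SD, n = 5 each), and it was higher in pbrm-1(TS-KO) on 1 of 5 days. Without fbxa-24 the sums were 658 ± 33.6 and 662 ± 25.1 CPM. On days 1, 4, 5, 6 and 7, the pbrm-1(TS-KO) library was the higher of the pair for 63, 74, 71, 55 and 72 members.

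By chromosome, both calls on chromosome I were rises, out of 6 members, where 6.51% of all genes of the chromosome were called. Chromosome II had 1 rise and 1 fall among 11 members, where 6.69% of its genes were called. Chromosome III had 2 of each among 50 members tested, or 8%, where 6.91% of all its genes were called. Chromosome V had 6 rises and 2 falls, 14.3% of its members against 9.43% of its genes. These rises include fbxa-181 and fbxa-196, whose direction the count rule favoured or set, so the 14.3% is not a like comparison. On chromosome IV, where 8.28% of genes were called, 0 of 3 members were called by edgeR and by DESeq2, and 0 had an unadjusted p under 0.05. On X, where 7.82% of genes were called, 0 of 9 were called by edgeR and by DESeq2, and 1 had an unadjusted p under 0.05. With so few members on I, II, IV and X, these counts are given as a description.

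**Figure D1:**
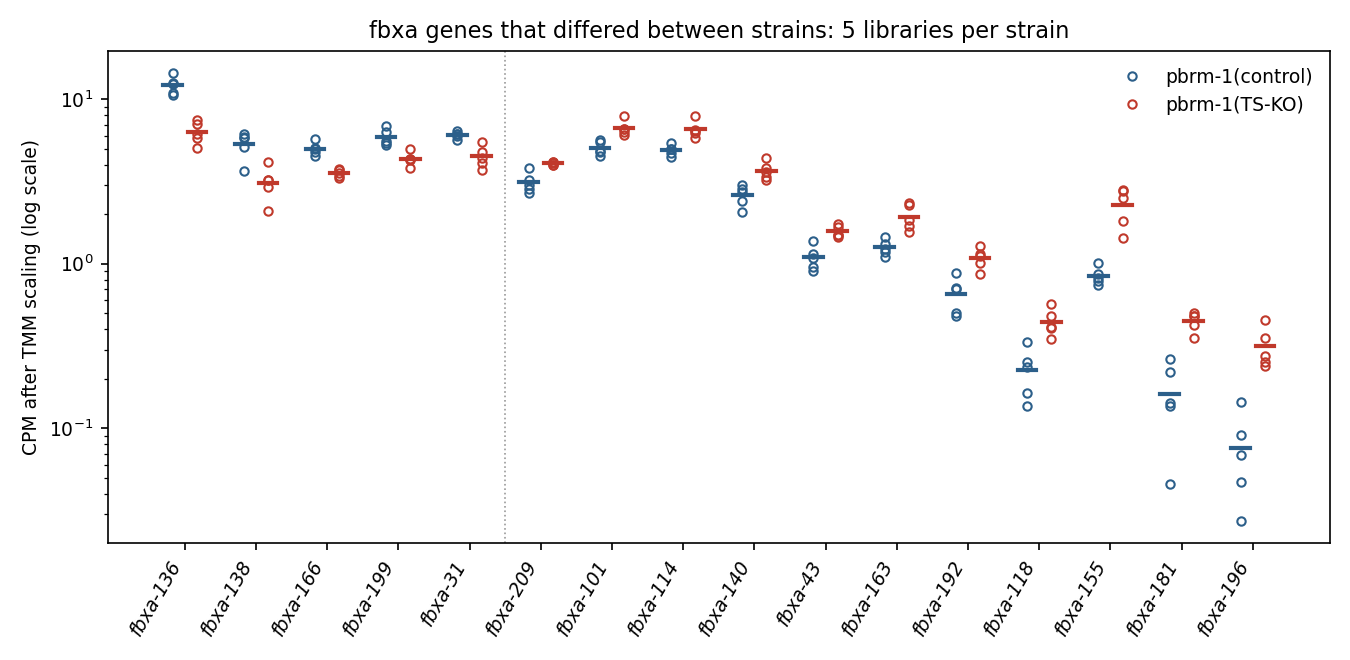
CPM after TMM scaling on a log axis for the 16 fbxa genes called between strains, ordered by log2 fold change, with the 5 pbrm-1(control) libraries in blue, the 5 pbrm-1(TS-KO) libraries in red and bars for the means. The 5 genes left of the dotted line were lower in pbrm-1(TS-KO) and the 11 to its right were higher. Libraries of the strains overlap for fbxa-138 and fbxa-192.

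The strongest fall was that of fbxa-136 (WBGene00007672, chromosome V, 17521035 to 17527479 of WBcel235). Its values were 7.03, 5.04, 7.43, 6.13 and 5.78 CPM in pbrm-1(TS-KO) replicates 1, 4, 5, 6 and 7, and 14.4, 10.7, 12.3, 10.9 and 12.5 CPM in the control libraries of the same numbers. Every control library was above every pbrm-1(TS-KO) library, and the log2 ratio was -0.95 (standard error, SE, 0.121, adjusted p = 0.000998, edgeR). The call held in all 15 fits (leave-out fits) that left out 1 library or both libraries of 1 day, in which its adjusted p was at most 0.0121. This gene had the longest exon sequence of the family, 5668 bases.

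The gene fbxa-138 (WBGene00022345, chromosome III, 1382185 to 1384252) had the next largest fall. It had 2.09, 4.12, 3.24, 2.90 and 3.20 CPM in pbrm-1(TS-KO) and 3.65, 5.81, 5.12, 6.10 and 5.85 CPM in pbrm-1(control), in the same order of replicates. The control library of day 1 lay within the range of pbrm-1(TS-KO), so the strains overlapped, although the pbrm-1(TS-KO) library was the lower of each pair. The log2 ratio was -0.77 (SE 0.185, adjusted p = 0.0285, edgeR). The call was lost in 9 of the 15 leave-out fits, with an adjusted p of up to 0.140.

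A tight set of values marked fbxa-166 (WBGene00015601, chromosome II, 1616829 to 1619048). It had 3.43, 3.29, 3.70, 3.57 and 3.75 CPM in pbrm-1(TS-KO) and 5.08, 4.52, 4.95, 5.72 and 4.74 CPM in pbrm-1(control). The strains were fully apart, with a log2 ratio of -0.49 (SE 0.0898, adjusted p = 0.0073, edgeR). Only without both libraries of replicate 6 was the call lost (adjusted p = 0.0538).

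The remaining falls were smaller. The gene fbxa-199 (WBGene00005931, chromosome V, 15397385 to 15398828) had 4.97, 4.34, 3.83, 4.26 and 4.34 CPM in pbrm-1(TS-KO) and 6.34, 5.22, 5.38, 6.82 and 5.60 CPM in pbrm-1(control), a log2 ratio of -0.43 (adjusted p = 0.0283). The gene fbxa-31 (WBGene00013838, chromosome III, 1269568 to 1271428) had 5.49, 4.38, 4.78, 3.70 and 4.07 CPM and 6.11, 5.93, 5.65, 6.38 and 6.10 CPM, also a log2 ratio of -0.43 (adjusted p = 0.0344). In neither gene did the strains overlap, but the lowest control library and the highest pbrm-1(TS-KO) library were close in both. Leave-out fits lost fbxa-199 in 11 of 15 cases, with an adjusted p of up to 0.139, and fbxa-31 in 13 of 15, with an adjusted p of up to 0.155. Without control replicate 5 the adjusted p of fbxa-31 was 0.0520.

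Among the rises, fbxa-155 rested on the most counts of the 3 that reached 2-fold. This gene (WBGene00007323) lies on chromosome III at 10007966 to 10010217 of WBcel235. It had 2.76, 2.79, 2.51, 1.44 and 1.81 CPM in pbrm-1(TS-KO) replicates 1, 4, 5, 6 and 7 and 0.781, 1.01, 0.861, 0.739 and 0.816 CPM in pbrm-1(control). The control libraries were close together and all of them were lower than any pbrm-1(TS-KO) library, and among the latter those of days 6 and 7 were the lowest. The log2 ratio was 1.42 (SE 0.199, adjusted p = 0.00176, edgeR), and the call held in all 15 leave-out fits, with an adjusted p of at most 0.0175. No other member lay within 10 kb of fbxa-155 or of fbxa-136, which together were the only members whose calls held in every leave-out fit.

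The largest fitted rise was that of fbxa-196 (WBGene00020265, chromosome V, 6448656 to 6450217), a gene near the limit of detection. It had 11, 11, 13, 17 and 11 counts in pbrm-1(TS-KO) and 3, 2, 6, 1 and 4 counts in pbrm-1(control), which is 0.273, 0.240, 0.351, 0.453 and 0.252 CPM against 0.0689, 0.0471, 0.144, 0.0274 and 0.0907 CPM. All pbrm-1(TS-KO) libraries were higher, with a log2 ratio of 1.98 (SE 0.372, adjusted p = 0.00865, edgeR), while DESeq2 gave no adjusted p for so low a gene. The leave-out fits tested it in 13 cases and lost the call in 1, without both libraries of replicate 6 (adjusted p = 0.0520).

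The gene fbxa-181 (WBGene00009427, chromosome V, 13725874 to 13727013) was just as rare. It had 17, 22, 13, 18 and 22 counts in pbrm-1(TS-KO) and 2, 6, 11, 8 and 6 counts in pbrm-1(control), or 0.422, 0.480, 0.351, 0.480 and 0.503 CPM against 0.0460, 0.141, 0.263, 0.219 and 0.136 CPM. Control replicate 5 was the highest of the control libraries and still below each pbrm-1(TS-KO) library. The log2 ratio was 1.48 (SE 0.327, adjusted p = 0.0201, edgeR). The call was lost without replicate 4 (adjusted p = 0.0926), replicate 6 (0.0726) or replicate 7 (0.0767), when both libraries of that number were left out.

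Counts were low for fbxa-118 (WBGene00010934, chromosome V, 19776080 to 19777327) as well. It had 0.348, 0.567, 0.405, 0.480 and 0.412 CPM in pbrm-1(TS-KO) and 0.253, 0.235, 0.335, 0.164 and 0.136 CPM in pbrm-1(control), or 14 to 26 counts against 6 to 14. The strains barely missed overlapping, and the log2 ratio was 0.97 (SE 0.260, adjusted p = 0.0450, edgeR). In the fit with the replicate number as a block (1 term per collection day) its adjusted p was 0.0625, and of the 15 leave-out fits only that without control replicate 5 kept the call. The exons of fbxa-118 share 6.72% of their bases with fbxa-194 on the same strand.

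The gene fbxa-192 (WBGene00010212, chromosome V, 17640672 to 17650527) had 0.870, 1.29, 1.11, 1.15 and 1.01 CPM in pbrm-1(TS-KO) and 0.483, 0.706, 0.502, 0.876 and 0.703 CPM in pbrm-1(control). Control replicate 6 was level with pbrm-1(TS-KO) replicate 1, so the strains overlapped by this library. The log2 ratio was 0.73 (SE 0.192, adjusted p = 0.0410, edgeR), and 13 of 15 leave-out fits lost the call, with an adjusted p of up to 0.159.

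For fbxa-163 (WBGene00015598, chromosome II, 1609252 to 1610730) the values were 2.26, 1.55, 2.32, 1.84 and 1.69 CPM in pbrm-1(TS-KO) and 1.17, 1.32, 1.10, 1.45 and 1.22 CPM in pbrm-1(control). The pbrm-1(TS-KO) library of day 4 came closest to the control range without entering it. The log2 ratio was 0.62 (SE 0.147, adjusted p = 0.0267, edgeR), with an adjusted p of 0.0512 when the replicate number was a block. The call was lost in 10 of 15 leave-out fits.

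The other 5 rises were of less than 1.5-fold. The gene fbxa-43 on chromosome III had 1.57 ± 0.124 CPM in pbrm-1(TS-KO) and 1.09 ± 0.180 CPM in pbrm-1(control) (SD, n = 5 each), a log2 ratio of 0.52 (adjusted p = 0.0424, edgeR). The gene fbxa-114 (chromosome V, 20201616 to 20202874) had 6.55 ± 0.769 and 4.90 ± 0.377 CPM, a log2 ratio of 0.42 (adjusted p = 0.0258), and it lies 967 bases from fog-2. The log2 ratio of fog-2 was 0.16 (adjusted p = 0.630). On chromosome V, fbxa-209 had 4.06 ± 0.0871 and 3.12 ± 0.434 CPM, a log2 ratio of 0.38 (adjusted p = 0.0488). Its exons overlap those of Y36E3A.2 on the other strand by 24.5% and those of fbxa-104 on its own strand by 1.71%. Since the strand setting of the counting was not stated, reads of fbxa-209 and Y36E3A.2 cannot be told apart there. With the replicate number as a block, fbxa-43 (adjusted p = 0.0730) and fbxa-209 (0.0597) were lost, as they were without control replicate 5, with adjusted p of 0.0735 and 0.104. The other members of this set, fbxa-101 and fbxa-140, are neighbours and are described with the groups.

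**Figure D2:**
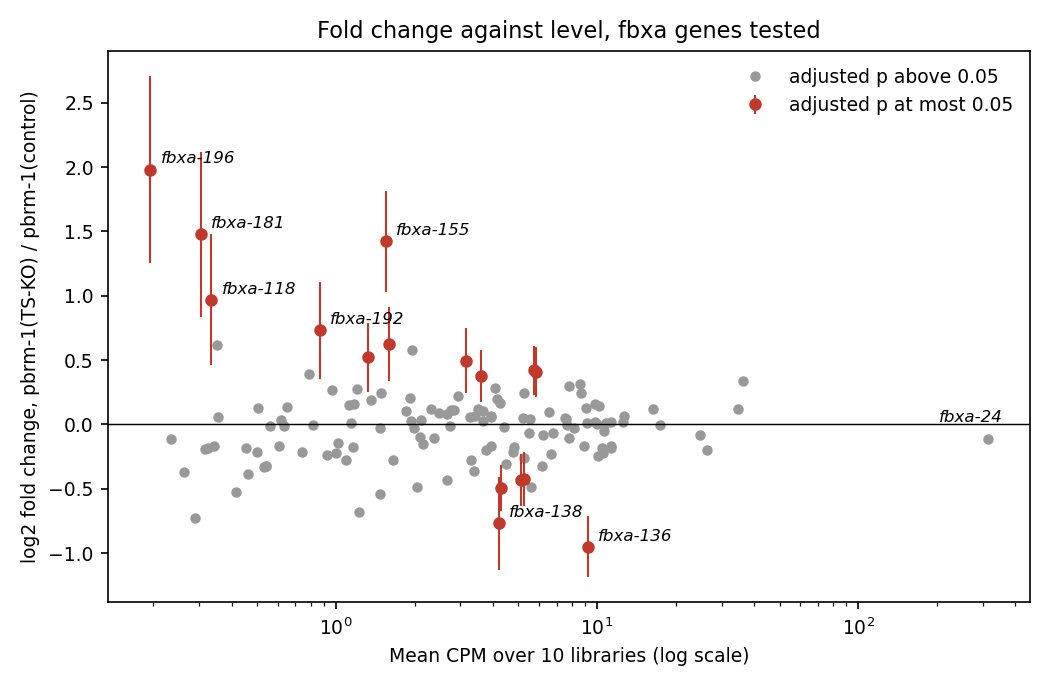
Log2 fold change of pbrm-1(TS-KO) over pbrm-1(control) against mean CPM on a log axis for the 135 fbxa genes tested. Red points are the 16 genes with an adjusted p of at most 0.05, with approximate 95% intervals from the SE of each, and grey points are the genes not called. The 3 rises of 2-fold or more are at 0.195 to 1.55 CPM, and fbxa-24 lies alone at 314 CPM.

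Precision followed depth. The 31 tested members under 1 CPM had a median SE of 0.266 on the log2 scale, and the 104 members at or above 1 CPM one of 0.122. Calls were made for 4 of the former (12.9%), where 4.27% of all genes at that level were called, and for 12 of the latter (11.5%), compared with 8.50% of genes. The 4 under 1 CPM include fbxa-196 and fbxa-181, which had 10 counts in 5 pbrm-1(TS-KO) libraries and in 0 and 1 control libraries. Their entry into the family thus rested on the strain in which they were higher, so the 12.9% is not a like comparison. Among the members that were not called, the approximate 95% interval of the fold change stayed within 2-fold either way for 112 and within 1.5-fold for 82, and it reached beyond 2-fold for 7. Adjusted p between 0.05 and 0.1 was found for fbxa-3, fbxa-15, fbxa-80, fbxa-89, fbxa-143 and fbxa-154, all of which DESeq2 called. The nearest was fbxa-154 on chromosome V, with a log2 ratio of -0.43 (adjusted p = 0.0516).

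The number of called members was sensitive to single libraries. Without pbrm-1(TS-KO) replicates 1, 4, 5, 6 and 7 in turn, 12, 9, 5, 5 and 8 members were called, and without pbrm-1(control) replicates 1, 4, 5, 6 and 7, 8, 9, 10, 8 and 8. Without control replicate 5, the library with the high dpy-7 value, 6 members were called higher and 4 lower, while 5.33% of all genes were called. Without both libraries of replicate 6, 2 members were called, fbxa-136 and fbxa-155, and 2.42% of all genes. The replicate block gave 13 of 135 members tested, 7 higher and 6 lower, a smaller share than the 10.9% of all genes called. It kept 11 of the 16 and added fbxa-6 and fbxa-59. DESeq2 called 20 members, where it called 11.7% of all genes, limma-voom called 30, where it called 17.2% of all genes, and edgeR without a filter on low counts called 6, where 3.08% of all genes were called.

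Of the 25 groups of neighbouring members, 2 held more than 1 called member, and in 1 of them the called members moved the same way. That group was the pair fbxa-101 (WBGene00008569, chromosome I, 12958640 to 12959932) and fbxa-140 (WBGene00008130, chromosome I, 12960313 to 12961619), which lie 380 bases apart on the minus strand. The first had 6.04, 7.94, 6.56, 6.34 and 6.54 CPM in pbrm-1(TS-KO) and 4.50, 4.85, 5.62, 5.50 and 4.74 CPM in pbrm-1(control), a log2 ratio of 0.41 (adjusted p = 0.0321, edgeR). The second had 3.23, 4.36, 3.83, 3.60 and 3.34 CPM and 2.85, 2.05, 2.42, 2.71 and 3.01 CPM, a log2 ratio of 0.49 (adjusted p = 0.0407). In both genes pbrm-1(TS-KO) replicate 4 was the highest library, and in neither did the strains overlap. Without that library the adjusted p was 0.0655 for fbxa-101 and 0.0877 for fbxa-140, and with the replicate number as a block it was 0.0377 and 0.0775. The genes on either side of the pair were not called, with a log2 ratio of 0.18 for F08A8.5 (adjusted p = 0.403) and 0.02 for C47B2.2 (adjusted p = 0.912).

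The other group with several calls moved in opposite directions. It holds 5 genes on the minus strand of chromosome II within 12.03 kb (1609252 to 1621280), in the order fbxa-163, fbxa-164, fbxa-165, fbxa-166 and fbxa-158. Here fbxa-163 was higher and fbxa-166 was lower in pbrm-1(TS-KO), as given above, and the log2 ratios of the others were -0.31 for fbxa-164 (adjusted p = 0.458), 0.16 for fbxa-165 (0.756) and -0.11 for fbxa-158 (0.580). The genes fbxa-165 and fbxa-166 are 346 bases apart.

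In 5 groups a single member was called. In the largest group, 9 genes on chromosome III, fbxa-31 fell, and the log2 ratios of the others were -0.26 for fbxa-61, -0.03 for fbxa-63, 0.05 for fbxa-76, 0.01 for fbxa-77, -0.22 for fbxa-78, -0.19 for fbxa-151, 0.16 for fbxa-32 and -0.19 for fbxa-29, with adjusted p from 0.155 to 0.968. The exons of fbxa-78 are covered fully by fbxa-208 on the other strand, which had 1 count in all. Around fbxa-43 they were 0.03 for fbxa-7, -0.73 for fbxa-71, 0.39 for fbxa-42, -0.10 for fbxa-9, 0.00 for fbxa-48 and 0.15 for fbxa-39, with adjusted p from 0.278 to 0.984. The partners of fbxa-199, fbxa-192 and fbxa-114 were fbxa-135 at 0.06 (adjusted p = 0.868), fbxa-108 at -0.02 (0.934) and fbxa-115 at 0.08 (0.791). In all, 9 called members lay in groups and 7 lay alone.

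Over all 63 adjacent pairs, 34 (53.97%) had the same direction of change, next to 55.0% of 14242 adjacent pairs of protein-coding genes within the same distance, and 1 pair (1.59%) had both genes called, next to 1.004% of those pairs. With gaps of up to 50 kb there were 21 groups with 100 members, of which 4 held more than 1 called member. A group of 22 genes over 145 kb of chromosome III then joined the falls of fbxa-31 and fbxa-138, and a group of 3 on chromosome V joined the fall of fbxa-199 and the rise of fbxa-209. With gaps of up to 5 kb there were 26 groups, of which 2 held more than 1 called member.

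**Figure D3:**
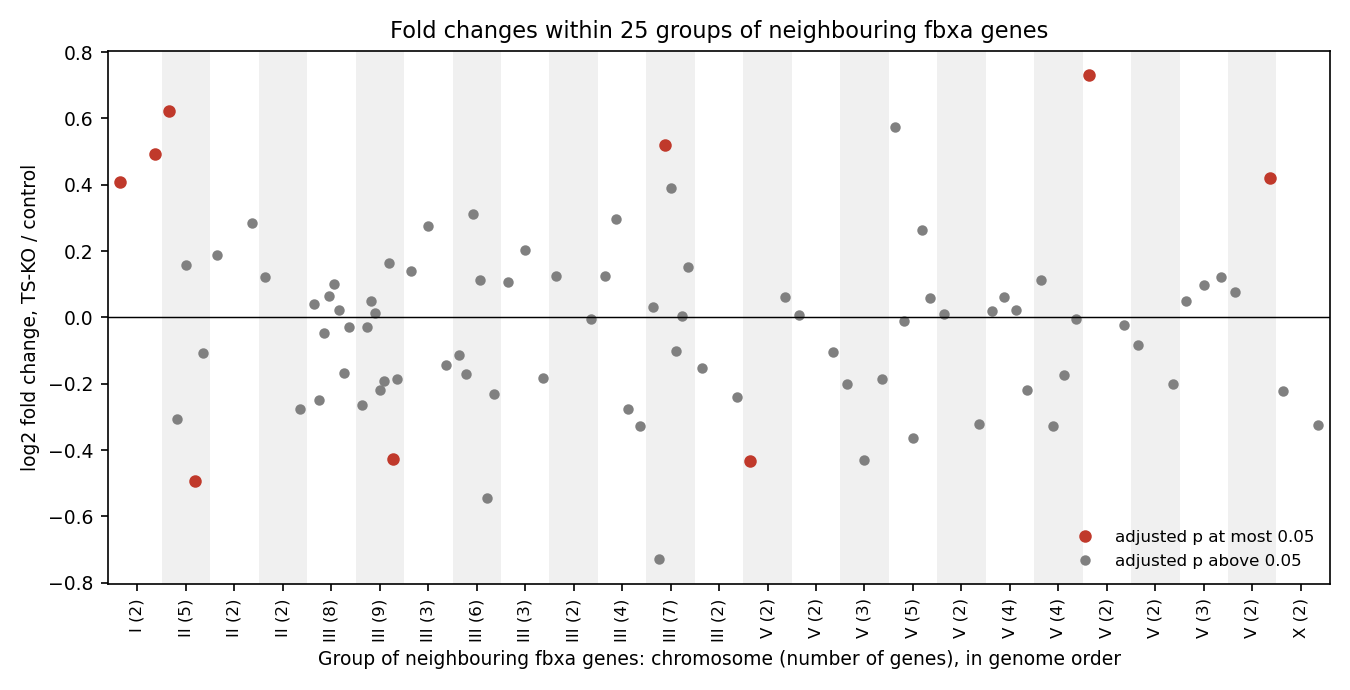
Log2 fold changes of the members of 25 groups of neighbouring fbxa genes, in genome order from left to right, with the chromosome and the number of genes of each group on the horizontal axis. Red points had an adjusted p of at most 0.05. The pair on chromosome I has both genes at 0.41 and 0.49, and the group of 5 on chromosome II runs from -0.49 to 0.62.

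The nearest expressed genes on either side of the called members changed in 7 of 32 cases (21.9%), where 13.3% of the flanks of all called genes did, and 4 of the 7 had the direction of the member. Beside fbxa-196, T05H4.3 rose by 1.18 on the log2 scale (adjusted p = 0.00254, edgeR). Beside fbxa-181, both flanks went against it, with log2 ratios of -0.47 for T01D3.6 (adjusted p = 0.0011) and -0.995 for dct-17 (adjusted p = 0.0155). The rise of scl-24, 1.18 (adjusted p = 0.0228), also went against the fall of fbxa-136, but it lies 33.8 kb away. The remaining flanks called were fbxa-101 and fbxa-140, each beside the other, and the pseudogene beside fbxa-192.

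Annotated pseudogenes of the family stand among these genes. RefSeq's gene table names 52 fbxa pseudogenes, all of which matched a pseudogene of the count table by their coordinates, and 35 were tested. Of these, 3 were called (8.57%), near the 7.72% of all genes. The median log2 ratio was 0.15, next to 0.00045 for all genes. An unadjusted p under 0.05 was found for 11 of the 35, where 24.1% of all genes had one. The pseudogene fbxa-193 (WBGene00010295) rose by 0.54 (adjusted p = 0.0274, edgeR). Its nearest member, fbxa-108 at 1608 bases, was at -0.02 (adjusted p = 0.934), while the called fbxa-192 lies 2954 bases away on the other side. The pseudogene fbxa-20 (WBGene00022332), 174 bases from fbxa-80 on chromosome III, had 1.10 CPM in pbrm-1(TS-KO) on average and 0.644 CPM in pbrm-1(control), a log2 ratio of 0.77 (adjusted p = 0.0228), while fbxa-80 was at 0.31 (adjusted p = 0.0671). The pseudogene fbxa-68 (WBGene00020641) was lower, with a log2 ratio of -0.91 (adjusted p = 0.0262), and fbxa-7, 508 bases away, was at 0.03. Close copies can share reads, and only uniquely mapped reads were counted, so values of near-identical neighbours are uncertain.

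The calls in other genes of the ubiquitin ligase system are read against the 7.72% of all genes called, which in lists this short corresponds to few or no genes. The related F-box families had fewer genes expressed: 27 of 104 fbxb genes were tested and 0 were called by edgeR (2 at an unadjusted p under 0.05, 0 by DESeq2), and of 26 fbxc genes tested 1 was called, fbxc-45, with a log2 ratio of 0.46 (adjusted p = 0.0160). DESeq2 called 3 fbxc genes. Of 21 genes of the SCF core, cul-1, the rbx ring-finger genes and the skr adaptors, 0 were called by edgeR, 2 had an unadjusted p under 0.05 and DESeq2 called 1, skr-5. Of 5 other cullin genes 0 were called by edgeR, at an unadjusted p under 0.05 or by DESeq2. Of 8 F-box genes of known role, among them lin-23, sel-10, dre-1 and fog-2, 0 were called by edgeR, while 2 had an unadjusted p under 0.05 and DESeq2 called 1, sdz-33.

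The CUL-6 ligase of the intracellular pathogen response includes members of the family. All 7 of its listed genes had a negative log2 ratio, from -0.43 to -0.04 with a median of -0.11. Several were small and not called, such as cul-6 (-0.04, adjusted p = 0.794, edgeR) and skr-3 (-0.08, adjusted p = 0.550). The 1 gene called, where 7.72% of all genes were called, was rcs-1, which encodes a ring-finger subunit. It had 15.2 to 16.9 CPM in pbrm-1(TS-KO), against 19.4 to 25.7 CPM in pbrm-1(control), a log2 ratio of -0.43 (adjusted p = 0.0071, edgeR). The F-box genes of this ligase were not called: fbxa-158 had 7.55 ± 0.965 and 8.13 ± 0.888 CPM (SD, n = 5 each; log2 ratio -0.11, adjusted p = 0.580), and fbxa-75 had 3 to 13 and 6 to 14 counts (log2 ratio -0.11, SE 0.363, adjusted p = 0.882). The adaptor gene skr-5 had a log2 ratio of -0.40 (adjusted p = 0.0899, and 0.0157 with the replicate number as a block). Among 28 pals genes tested, a family that controls and marks this response, 2 rose, pals-18 and pals-26, and 4 fell, pals-6, pals-15, pals-37 and pals-39, which is 21.4% of the list where 7.72% of all genes were called, with a median log2 ratio of -0.08. Without control replicate 5, 3 pals genes were called.

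The comparison between days asked how the family varied from collection to collection. In a test of the replicate number within strains, edgeR called 0 members and 0 of 16817 genes (percent called 0, smallest adjusted p 0.146), while 14 members (10.4%) and 16.5% of all genes had an unadjusted p under 0.05. DESeq2's likelihood ratio test called 897 genes (5.74%), with fbxa-6 as the only member (adjusted p = 0.00227). The smallest p of the members belonged to fbxa-6, fbxa-59 and fbxa-67, all on chromosome III.

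In each of fbxa-6, fbxa-59 and fbxa-67, day 1 was the lowest by the mean of both strains. The gene fbxa-6 (1219 to 3097, at the very end of the chromosome) had 32.95, 44.8, 39.3, 37.7 and 47.1 CPM in pbrm-1(TS-KO) and 23.9, 39.1, 30.2, 32.2 and 34.4 CPM in pbrm-1(control). It was higher in pbrm-1(TS-KO) on every day although the strains overlapped over days, and its log2 ratio was 0.34 (adjusted p = 0.137, and 0.00999 with the replicate number as a block). For fbxa-59 the values were 7.26, 9.59, 8.96, 8.71 and 11.7 CPM and 9.12, 11.8, 10.5, 10.2 and 13.4 CPM, lower in pbrm-1(TS-KO) on every day (log2 ratio -0.25, adjusted p = 0.290, and 0.0416 with the block). For fbxa-67 they were 11.4, 15.1, 12.7, 11.5 and 14.2 CPM and 10.4, 13.3, 12.9, 11.1 and 14.3 CPM, and its log2 ratio between strains was 0.07 (adjusted p = 0.756). Its exons overlap those of the pseudogene fbxa-23 by 23.0%.

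Day 1 was the lowest of the 5 days for 58 of the 135 members (43.0%), compared with 29.0% of all genes tested, and day 7 was the highest for 37 members (27.4%), compared with 20.7% of genes. The median ratio of the highest to the lowest day mean was 1.27 over the members.

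**Figure D4:**
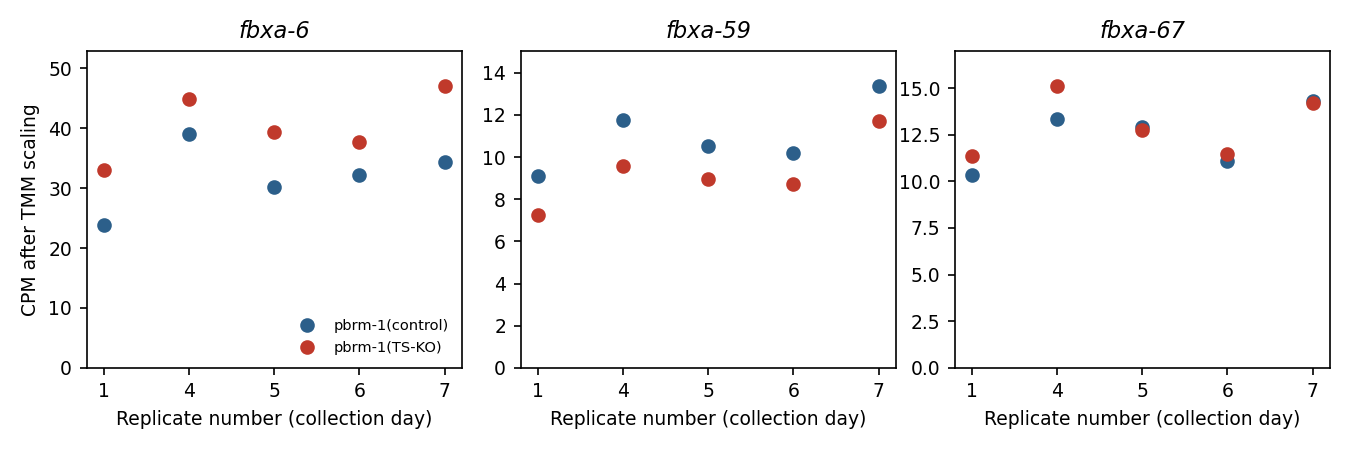
CPM after TMM scaling of fbxa-6, fbxa-59 and fbxa-67 on each collection day (replicate numbers 1, 4, 5, 6 and 7), 1 library per strain and day, with pbrm-1(TS-KO) in red and pbrm-1(control) in blue. Both libraries of day 1 are the lowest of their strain in fbxa-6, fbxa-59 and fbxa-67, and the strain difference of fbxa-6 and fbxa-59 has 1 direction on all 5 days.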

How the data were processed

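Paired-end reads were trimmed by the authors, mapped with STAR 2.5.2b and counted with featureCounts of Subread 1.5.2, with unique reads within exons. The genome is written as WBcel325 in the methods and was taken as WBcel235, and the strand setting is not given in the sources used here. The deposited values are raw counts per gene and library, and 0 columns were left unused. Genes were named, placed and measured with the Ensembl WBcel235 annotation, which held 46581 of 46756 genes.

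Counts were tested with edgeR 4.0.16 (TMM, filterByExpr, quasi-likelihood F test, R 4.3.3) across all genes without a block, since the methods state no covariate, with DESeq2 1.42.0 and limma 3.58.1 as alternatives. The methods do state that both strains were grown and collected side by side for each replicate, a pairing that the main fit leaves out. A gene was called at an adjusted p of at most 0.05. CPM were computed after TMM scaling, and standard errors are approximate, from the fold change and its F statistic. The scripts were tested on simulated data. All replicates were separate collections, but p-values measure the spread between these 10 libraries only.

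The replicate numbers pair the libraries by collection day. Deviations from the strain means of same-numbered libraries correlated at 0.505, 0.283, 0.124, -0.0514 and 0.351 for numbers 1, 4, 5, 6 and 7 (median 0.283, against -0.0972 for different numbers). For the members, adjusted p with this block are given where they changed a call. For the pseudogenes and the other gene lists they are not all given.

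Every called member was named, and the 6 largest rises by log2 fold change and the 5 falls were given in all libraries. Also named were the 3 members with the highest CPM per kilobase of exon, the 3 with the smallest p for replicate number, the neighbours within 10 kb of called members, fbxa-75 and fbxa-158. The members and gene lists were chosen with earlier results of these data known. Of the marker names, opt-2 matched no gene. With pbrm-1(TS-KO) first and the control after it, summed pharynx markers were at 5481 to 6021 and 5757 to 6634 CPM, epidermis markers at 89.5 to 106 and 92.8 to 200.0 CPM, neuron markers at 669 to 729 and 653 to 712 CPM, germ cell markers at 231 to 257 and 204 to 238 CPM, and adult genes at 2.42 to 4.16 and 2.37 to 3.67 CPM.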

Additional observations from a re-analysis of the deposited data

Results flagged for a closer look

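In fbxa-101, 1 of 32 groups of 5 libraries that were checked for a library far from the others stood out, and chance alone would give about 1 in 20. The library of pbrm-1(TS-KO) replicate 4 had 7.94 CPM, where the other 4 pbrm-1(TS-KO) libraries had 6.04 to 6.56 CPM. The gap to the nearest library was 0.724 of the range, above Dixon's 95% critical value for 5 libraries. The adjusted p of fbxa-101 was 0.0321 with this library and 0.0655 without it (edgeR's quasi-likelihood test), and the log2 fold change was 0.41 and 0.34.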

How the results depend on the processing

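None of the fold changes of the called members reversed. Over 7 other settings they gave 105 values with an adjusted p, of which 84 kept the call and 21 lost it, and over the leave-out fits 238 values, of which 131 lost it. Those fits have fewer libraries. DESeq2 called 1958 genes and 20 members, 8 of them lower, against 1299 genes and 16 members in edgeR. The cause of that difference was not tested. Without a filter on low counts 6 members were called, 3 higher and 3 lower, among more genes tested. With limma-voom and quality weights 2899 genes and 30 members were called, 17 of them lower, and all 16 members kept their call, and this cause was not tested either. RLE size factors gave 16 members, and at least 10 counts in every library 14.

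With the replicate number as a block, edgeR called 7 members higher and DESeq2 called 9 members, 4 of them higher. Beyond the calls given above, this replicate block changed none of the 16 edgeR calls. Leaving out 1 library or both libraries of 1 number gave 408 to 1204 genes called and 2 to 12 members, with 1 to 7 higher and 1 to 5 lower. The median log2 fold change of the members was -0.0352 to 0.0191 in these fits. Apart from the smaller number of libraries, the cause of the losses was not tested. Of 20 uncalled neighbours of the called members, 1 became called under any setting, fbxa-61 with limma-voom (log2 fold change -0.34, adjusted p = 0.0277).

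For replicate number, 988 genes and 1 member, fbxa-6, were called without a filter, and 897 genes and 1 member by DESeq2's likelihood ratio test, against 0 in the main test and in the 5 fits that left out 1 number. Neighbouring groups with more than 1 called member numbered 4 with gaps of up to 50 kb and 2 with 10 kb.

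Depth limits the rarest members most: fbxa-118, fbxa-181 and fbxa-196 rest on at most 26 counts in a library. The counts are of whole larvae, uniquely mapped reads only, so near-identical copies can lose reads. The call counts move with single libraries, as given above.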
